A study of Danio rerio with 12 samples.

Results

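This comparison set the middle dose of perfluorooctanesulfonate (PFOS) against the lowest one in whole zebrafish larvae, a 10-fold step in dose. It used 6 of the 12 RNA-seq libraries of the series, 3 from larvae at 0.3 ppm and 3 from larvae at 0.03 ppm, chosen by their titles. Genes were included where at least 3 of these 6 libraries had a value of 10 or more, which kept 21816 of the 26873 genes in the files, 21054 of them protein coding. All larvae were wild type and were collected at 5 days post fertilization, after exposure through the water between days 2 and 5. Each library came from 10 pooled larvae, and every group, the control included, also received 0.2% DMSO, the solvent of the PFOS stocks. The other 6 libraries, from the solvent control and from 1 ppm PFOS, entered none of the tests between the doses, except where a fit of 9 or 12 libraries is named, and are otherwise quoted as context. Whether a replicate is a clutch or a tank of its own is not given in the labels, so the p-values measure only the spread between these libraries, which may be technical.

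PFOS is a persistent fluorinated surfactant with a chain that resembles a fatty acid. In mammals it is carried by serum albumin and binds liver fatty acid binding protein, and in rodent liver it activates PPARα, the nuclear receptor that switches on fatty acid oxidation genes. The larva at this age has a working liver, gut, heart and innate immune system, and a whole-larva library mixes the RNA of all of them.

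Each deposited value is the normalised read count of a gene. These summed to 28376244, 29208588 and 27658055 at 0.3 ppm, and to 27559432, 29417711 and 24061372 at 0.03 ppm. All 25 defining markers of the larval tissues that were looked up, among them ckma of skeletal muscle, fabp10a of liver, mpx of neutrophils and krt4 of epidermis, were above 0 in every one of the 6 libraries, with a lowest value of 206. Correlations between pairs of libraries on the log2 scale ran from 0.961 to 0.982. The first principal component, with 35.7% of the variance, did not separate the doses: 0.03 ppm replicate 2 lay at 55.7 and 0.3 ppm replicate 2 at 23.3, while the other 4 libraries lay below 0.

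No gene differed between 0.3 and 0.03 ppm by limma at an adjusted p under 0.05. The count was 0 of 21816 genes (0%), and 273 genes (1.25%) had an unadjusted p under 0.05, with 150 higher (0.688%) and 123 lower (0.564%) at 0.3 ppm. With the replicate number as a block the count was again 0, with 703 genes (3.22%) at an unadjusted p under 0.05. The smallest adjusted p was 0.322, for FO904928.1, and every other gene had an adjusted p of 1. In 586 genes (2.69%) the 3 values at 0.3 ppm all lay above the 3 at 0.03 ppm, and in 473 genes (2.17%) all lay below, together 4.85% of the genes. Rescaling the libraries to equal totals turned this split to 281 higher and 957 lower. If every ordering of 3 against 3 libraries were equally likely, a share of 0.1 of genes would lie apart, above or below. That is more than the 4.85% seen. Across all genes the log2 difference of 0.3 minus 0.03 ppm was above 0 for 51.3% and below 0 for 48.7%, with a median of 0.01.

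**Figure D1:**
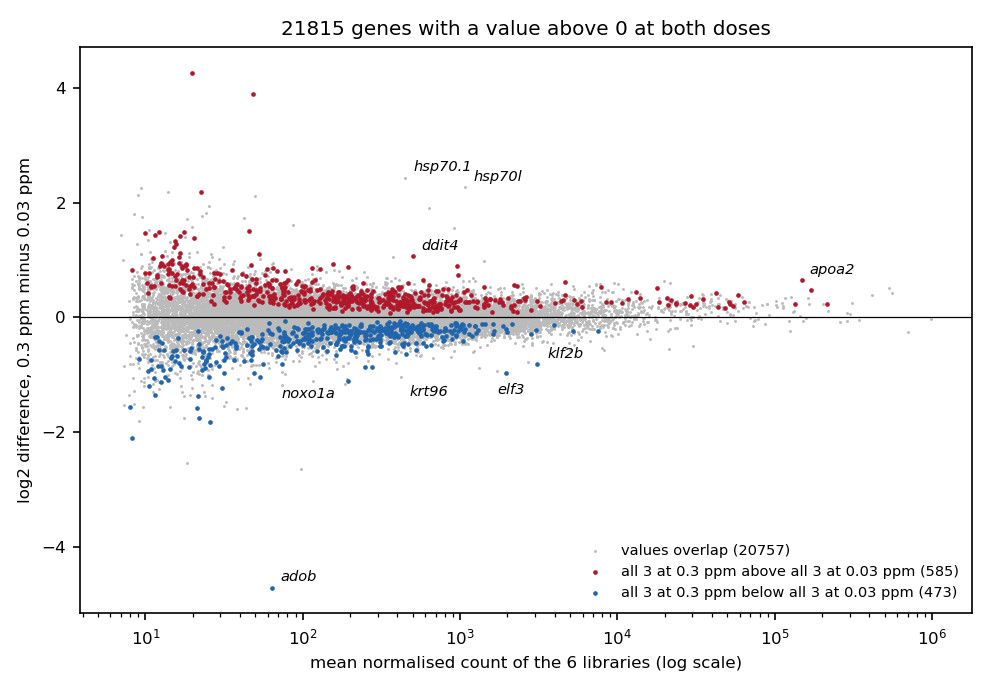
Log2 difference of 0.3 ppm minus 0.03 ppm for each gene with a value above 0 at both doses (vertical axis) against its mean normalised count over the 6 libraries (horizontal axis, log scale). Red points are the 585 drawn genes whose 3 values at 0.3 ppm all lay above the 3 at 0.03 ppm and blue points the 473 whose values all lay below; the other genes are grey, and most genes lie close to 0.

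The precision of the difference in these 6 libraries depended on the level of the gene. The intervals given here are for single genes and are not adjusted for the 21816 genes tested, so they do not show which differences could be called. The 95% interval of the log2 difference had a median half-width of 0.50, and for 17632 genes (80.8%) the whole interval lay within a 2-fold change in either direction. For 8315 genes (38.1%) it lay within a 1.5-fold change. Among genes with a mean between 10 and 100 normalised counts, 52.5% had an interval within 2-fold, against 94.1% of those between 100 and 1000 and 93.9% of those at 1000 or more. A log2 difference beyond 1 in either direction was seen in 132 genes, 99 of which had a mean between 10 and 100.

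The genes described next were picked because their values did not overlap between the doses and had the smallest unadjusted p, so their separation describes how they were chosen. Among those higher at 0.3 ppm, ddit4, which encodes an inhibitor of the growth kinase complex mTORC1, had 621, 755 and 669 normalised counts at 0.3 ppm, against 373, 240 and 377 at 0.03 ppm. The groups lay apart by a wide gap, and the log2 difference was 1.07 (95% interval 0.61 to 1.53). In the order of dose ddit4 had 590, 851 and 522 in the control, then these values at 0.03 and 0.3 ppm, and 592, 513 and 865 at 1 ppm, so the 3 libraries at 0.03 ppm were the lowest of all 12.

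defbl1, a beta-defensin-like antimicrobial peptide, had 1392, 1047 and 1173 at 0.3 ppm, against 872, 740 and 570 at 0.03 ppm (log2 difference 0.74). The chemokine gene ccl19b had 616, 586 and 484 at 0.3 ppm, against 389, 383 and 332 at 0.03 ppm (log2 difference 0.61). rnasel3, of the secreted ribonuclease A family, had 491, 448 and 488 at 0.3 ppm, against 330, 329 and 326 at 0.03 ppm, the narrowest spread within a dose among these genes. For rnasel3 the gap between the doses exceeded the spread within either dose, which it did not for defbl1 and ccl19b. Control libraries of ccl19b lay between 403 and 1162, a wider range than the 2 doses together.

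APCS and crp are pentraxin genes, whose products are plasma proteins that bind microbial surfaces and, in mammals, mark the acute phase response. APCS had 1070, 1109 and 1503 at 0.3 ppm, against 423, 698 and 944 at 0.03 ppm (log2 difference 0.89). For crp the values were 1655, 1391 and 2007 at 0.3 ppm, against 1298, 1129 and 1049 at 0.03 ppm (log2 difference 0.53). The lowest value at 0.3 ppm stood only just above the highest at 0.03 ppm in both, and with equal totals the values of APCS overlapped. The list of complement and acute phase genes had no steady direction. Of its 31 genes tested, 13 had a log2 difference above 0, with a median of -0.10, or -0.18 with equal totals. That median was 0.11 without 0.3 ppm replicate 2 and -0.16 without 0.3 ppm replicate 3. pla2g12b, a secreted phospholipase family member needed for lipoprotein secretion, had 6149, 4857 and 5741 at 0.3 ppm, against 3032, 3831 and 4073 at 0.03 ppm. Its values also overlapped with equal totals. anxa5b, a phospholipid-binding annexin, had 2721, 2600 and 2543 at 0.3 ppm, against 1634, 2126 and 1612 at 0.03 ppm. The remaining higher genes of the group were ADTRP, pcp4b, noxo1b and an ltbp1 gene (ENSDARG00000097768). The files give the symbol ltbp1 to another gene too (ENSDARG00000056922), where the difference ran the other way, at 489, 496 and 509 at 0.3 ppm, against 562, 616 and 649 at 0.03 ppm.

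Among the genes lower at 0.3 ppm, noxo1a, which encodes an organizer subunit of superoxide-producing NADPH oxidases, had 112, 101 and 153 at 0.3 ppm, against 218, 249 and 326 at 0.03 ppm. The log2 difference was -1.11 (95% interval -1.62 to -0.60). Control libraries had 279, 377 and 414 and libraries at 1 ppm 111, 201 and 176, so noxo1a at 0.03 ppm lay between the control and the higher doses in its mean. An earlier fit of this series had also called noxo1a against the control, so this order describes in part how noxo1a was chosen. Its paralog noxo1b had 77, 63 and 71 at 0.3 ppm, against 58, 22 and 26 at 0.03 ppm, so the difference ran in the opposite direction.

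elf3, klf2b, rargb and hmga2, which encode DNA-binding proteins, were 4 of the 12 lower genes. elf3, an ETS factor of epithelia, had 992, 1800 and 1165 at 0.3 ppm, against 3195, 1929 and 2591 at 0.03 ppm (log2 difference -0.98, 95% interval -1.55 to -0.41). klf2b, a Krüppel-like factor known from blood vessel walls under flow, had 1945, 2285 and 2250 at 0.3 ppm, against 4322, 2489 and 5107 at 0.03 ppm (log2 difference -0.82). For both genes replicate 2 at 0.03 ppm lay close to the highest 0.3 ppm library and the other 2 well above it. Control libraries had 2178, 3894 and 2840 for elf3 and, for klf2b, 1708, 5277 and 2510, which spanned both doses. rargb, a retinoic acid receptor, had 44, 43 and 34 at 0.3 ppm, against 74, 61 and 79 at 0.03 ppm, and hmga2, a chromatin protein of growing tissue, had 480, 520 and 471 at 0.3 ppm, against 687, 652 and 673 at 0.03 ppm (log2 difference -0.45).

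lcat, which esterifies cholesterol on lipoproteins, had 251, 331 and 339 at 0.3 ppm, against 363, 534 and 507 at 0.03 ppm. slc25a1b, a mitochondrial citrate carrier, had 390, 377 and 483 at 0.3 ppm, against 534, 788 and 556 at 0.03 ppm. PXDN, a peroxidase that crosslinks basement membrane collagen, rad50 of DNA break repair, and the axon guidance genes sema3ab and srgap1a had log2 differences between -0.64 and -0.50. sema3ab had 166, 284 and 172 at 0.3 ppm, against 298, 322 and 321 at 0.03 ppm. Its 3 control libraries, at 157, 199 and 217, also lay below all those at 0.03 ppm.

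**Figure D2:**
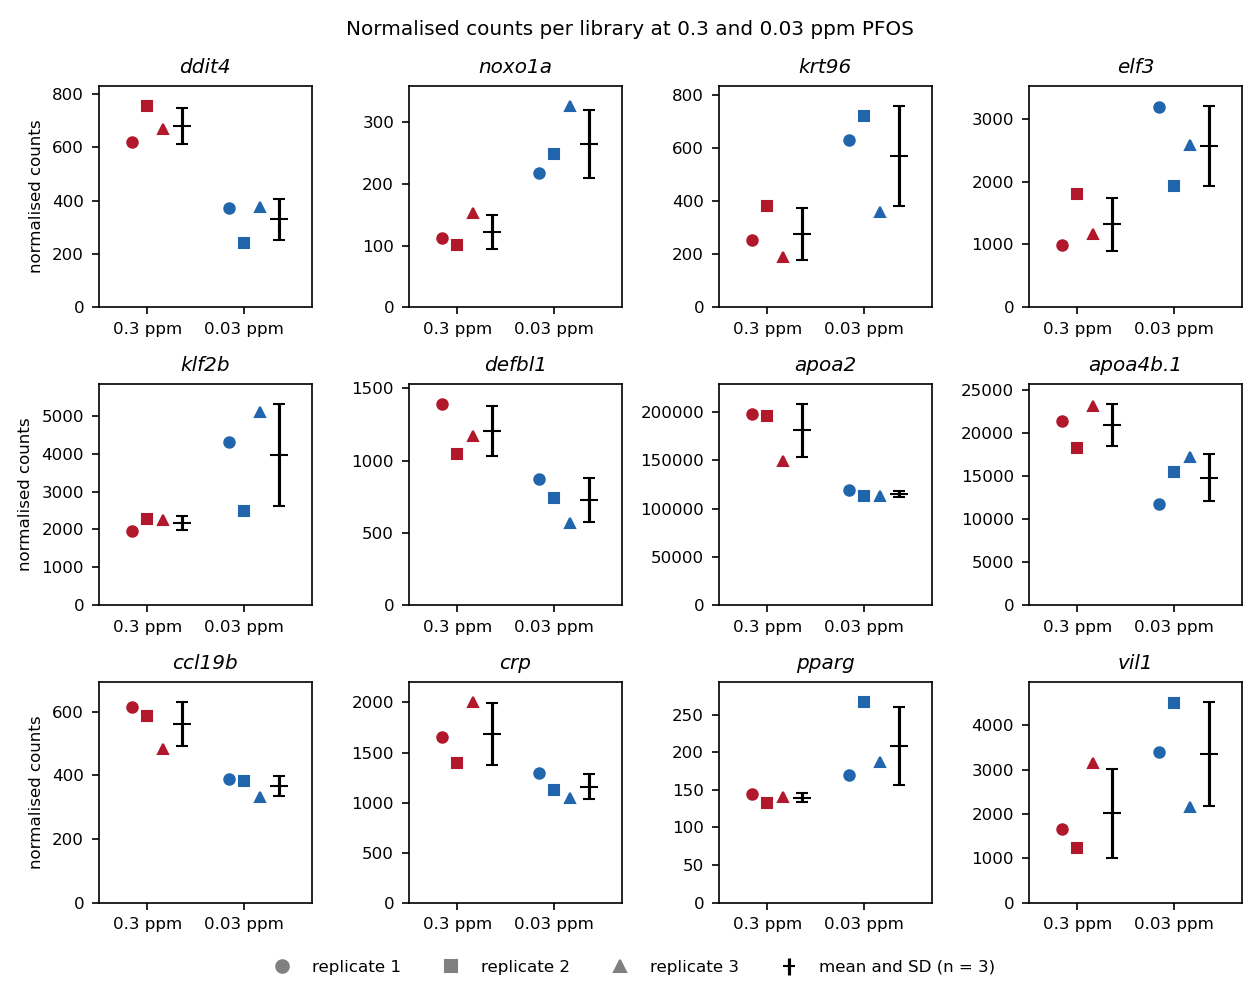
Normalised counts of 12 genes (vertical axes, from 0) in the libraries at 0.3 ppm (red, left) and 0.03 ppm (blue, right), with circles, squares and triangles for replicates 1, 2 and 3 and black bars for the mean and SD (n = 3). For ddit4, noxo1a, elf3, klf2b, defbl1, apoa2, apoa4b.1, ccl19b, crp and pparg the 2 doses do not overlap, while for krt96 and vil1 they do.

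FO904928.1, adob and an F7 gene were at or near 0 in most libraries of one dose, and each has a namesake among the gene IDs, so how their reads were divided between copies is uncertain. FO904928.1 (ENSDARG00000100529) had 42, 16 and 72 at 0.3 ppm and was listed at 0 in all 3 libraries at 0.03 ppm. It was listed at 0 in the 3 control libraries as well, and had 47, 45 and 49 at 1 ppm. With all 12 libraries sharing the estimate of spread it was the single gene called (limma adjusted p = 0.00305). The same held with the 9 PFOS libraries (limma adjusted p = 0.00999), while the 6 libraries alone gave a limma adjusted p of 0.322. Both wider fits took part of their spread from libraries where this gene was constant at 0 or nearly constant at 1 ppm. FO904928.1 also passed the filter only through its values at 0.3 ppm, so both calls are description only. The gene name table gives this ID the symbol sh3bp5a, which the files give to ENSDARG00000008336, and that gene had 521, 499 and 470 at 0.3 ppm, against 540, 543 and 622 at 0.03 ppm. The sums of both IDs, 563, 515 and 542 at 0.3 ppm and 540, 543 and 622 at 0.03 ppm, overlapped.

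The aldolase gene adob (ENSDARG00000101898) had 0, 59 and 0 at 0.3 ppm, against 149, 116 and 61 at 0.03 ppm. Another ID named adob (ENSDARG00000053571) had 240, 177 and 341 at 0.3 ppm, against 149, 116 and 219 at 0.03 ppm. In replicates 1 and 2 at 0.03 ppm both IDs had the same value, and the summed values, 240, 236 and 341 at 0.3 ppm and 298, 232 and 280 at 0.03 ppm, did not separate the doses. An F7 gene (ENSDARG00000099192), annotated as coagulation factor VII and chosen after its values were seen, had 77, 71 and 108 at 0.3 ppm, against 2, 30 and 1 at 0.03 ppm, while the control libraries had 140, 93 and 0 and those at 1 ppm 96, 101 and 120. Another ID named F7 (ENSDARG00000100782) had 98, 118 and 249 at 0.3 ppm, against 79, 258 and 168 at 0.03 ppm. The summed F7 values, 175, 189 and 357 at 0.3 ppm and 81, 288 and 169 at 0.03 ppm, overlapped.

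Genes that earlier fits of this series had called at a PFOS dose against the control were followed across the step between doses. Those fits share the 6 libraries used here, so the direction of these genes between the doses is not independent of how they were chosen. Of the 22 such gene IDs tested, 6 (27.3%) had a log2 difference above 0, beside 51.3% of all genes. Their median was -0.21, and 0 were called. krt96, a keratin gene, had 253, 383 and 191 at 0.3 ppm, against 630, 723 and 361 at 0.03 ppm, a log2 difference of -1.05 (95% interval -1.75 to -0.35). Its doses overlapped between replicates 2 and 3, but it was lower at 0.3 ppm within each of the 3 replicate numbers. The control libraries had 1878, 1416 and 1450 and those at 1 ppm 256, 202 and 321, so in krt96 most of the distance from the control was already present at 0.03 ppm.

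For the ubiquitin ligase gene trim63a, which marks muscle protein breakdown, the values were 783, 658 and 676 at 0.3 ppm, against 994, 784 and 768 at 0.03 ppm, a log2 difference of -0.26 (95% interval -0.63 to 0.11). fbxo32, another ubiquitin ligase of muscle, had 148, 162 and 151 at 0.3 ppm, against 113, 347 and 168 at 0.03 ppm, with an interval from -1.07 to 0.50. In both genes the doses overlapped, and in fbxo32 the 0.03 ppm libraries spanned the 0.3 ppm ones on both sides.

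Differences near 0 were seen in mkrn1, a ubiquitin ligase, at 715, 779 and 873 at 0.3 ppm, against 711, 784 and 806 at 0.03 ppm (95% interval -0.30 to 0.37), in the clone-named gene si:dkey-239b22.1 (-0.40 to 0.26) and in DUSP27, an atypical phosphatase of muscle (-0.46 to 0.31). A 2-fold difference between the doses lies outside each of these intervals. It lies inside those of stat1b, a transcription factor of interferon signalling, at 16, 23 and 9 at 0.3 ppm, against 9, 32 and 18 at 0.03 ppm (-1.38 to 0.96), and of ppp1r27b. zgc:153932 had 399, 642 and 613 at 0.3 ppm, against 720, 701 and 845 at 0.03 ppm, with no overlap and an interval from -0.94 to -0.02.

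**Figure D3:**
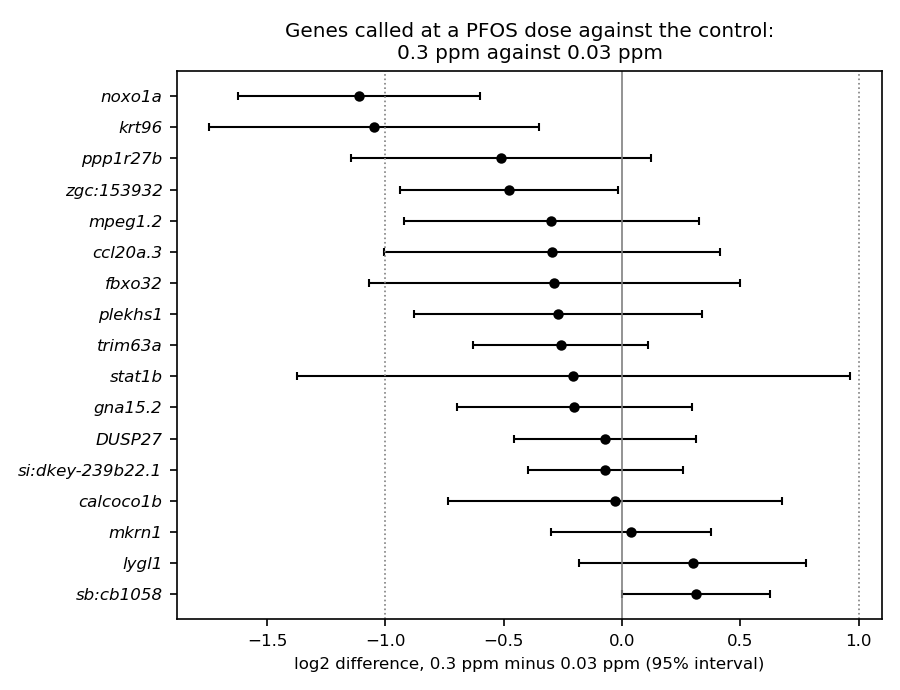
Log2 difference of 0.3 ppm minus 0.03 ppm with its 95% interval for 17 genes called earlier at a PFOS dose against the control (horizontal axis in log2 units, dotted lines at a 2-fold change). The intervals of noxo1a, krt96 and zgc:153932 lie below 0, and the other 14 include 0. FO904928.1, whose interval of 3.79 to 6.68 lies above 0, is not drawn. The IDs named PLEKHS1 and URGCP, whose intervals include 0, are not drawn either.

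Genes of lipid handling were read as lists, since PFOS binds proteins of this pathway. In whole larvae, a lower level of a list can come from fewer cells of a type or from less RNA per cell, and these cannot be told apart. In 28 of the 41 lists the median changed sign when 1 of the 6 libraries was left out, and equal totals moved every list median by between -0.0776 and -0.0742, close to the shift of all genes. Of 37 liver plasma protein genes tested, 19 had a log2 difference above 0, close to the 51.3% of all genes, with a median of 0.02 that was -0.06 with equal totals. apoa2, an apolipoprotein of high-density particles, had 198212, 195494 and 149423 at 0.3 ppm, against 118811, 113402 and 112588 at 0.03 ppm. apoa4b.1, of the apolipoprotein A-IV cluster, had 21371, 18232 and 23072 at 0.3 ppm, against 11766, 15423 and 17164 at 0.03 ppm. Neither gene overlapped between the doses in the unscaled values, with log2 differences of 0.64 and 0.51. The copies of apoa4 lie in a family whose reads can be shared. Of the 37 genes, 3 lay above without overlap in the unscaled values, beside 2.69% of all genes, and 0 below, beside 2.17%. With equal totals only apoa2 of these 3 stayed apart, and apoa4b.1 overlapped. Control libraries of apoa2 had 157671, 187097 and 102628, from below the 0.03 ppm values to within those at 0.3 ppm. The liver list took 1.80%, 1.81% and 2.60% of all normalised counts at 0.3 ppm, against 1.52%, 1.79% and 2.12% at 0.03 ppm, and 31 of its 37 genes were highest in 0.3 ppm replicate 3.

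Among 37 genes of fatty acid oxidation and PPAR signalling, 14 had a log2 difference above 0, with a median of -0.04. Of the 37, 2 lay below without overlap, beside 2.17% of all genes, and 1 above, beside 2.69%. The lower members were pparg, the PPAR of fat cells, at 145, 133 and 140 at 0.3 ppm, against 170, 267 and 187 at 0.03 ppm, and acox3, a peroxisomal acyl-CoA oxidase, at 224, 177 and 248 at 0.3 ppm, against 303, 355 and 262 at 0.03 ppm. The higher member was etfb, a subunit of the electron transfer flavoprotein, which averaged 6331 ± 237 at 0.3 ppm and 5599 ± 479 at 0.03 ppm. pparaa, a zebrafish gene for PPARα, averaged 208 ± 26.5 at 0.3 ppm and 231 ± 65.2 at 0.03 ppm (SD, n = 3 each). acadm, a mitochondrial dehydrogenase of medium-chain fatty acids, averaged 4983 ± 432 at 0.3 ppm and 4950 ± 765 at 0.03 ppm. The averages of pparaa and acadm differed by less than the spread between replicates.

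Fatty acid binding protein genes had 10 of 12 log2 differences above 0, with a median of 0.24, or 0.16 with equal totals. The median stayed above 0 without any single library (0.15 to 0.38). In 7 of the 12 genes the lowest library was 0.03 ppm replicate 2. fabp7b had 335, 341 and 263 at 0.3 ppm, against 274, 207 and 200 at 0.03 ppm, and the muscle gene fabp3 had 12338, 11120 and 11389 at 0.3 ppm, against 10993, 8895 and 9555 at 0.03 ppm. The liver gene fabp10a averaged 9368 ± 2888 at 0.3 ppm and 7938 ± 907 at 0.03 ppm, with overlapping values. In the synthesis lists, 11 of 28 cholesterol genes and 9 of 21 fatty acid genes were above 0, with medians of -0.04 each. fads2, a fatty acid desaturase, was the fatty acid synthesis member with no overlap, at 629, 618 and 1057 at 0.3 ppm, against 549, 379 and 602 at 0.03 ppm. It was 1 of 21 above without overlap, beside 2.69% of all genes, with 0 below, beside 2.17%. The values of fads2 did overlap with the libraries rescaled to equal totals. Of 20 bile acid genes 11 were above 0, and cyp7a1, the rate-limiting enzyme of bile acid synthesis, averaged 482 ± 241 at 0.3 ppm and 442 ± 40.8 at 0.03 ppm.

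Of 50 genes of xenobiotic metabolism 28 were above 0 (median 0.02, or -0.06 with equal totals), and cyp1a, the classical target of the aryl hydrocarbon receptor, averaged 398 ± 56.2 at 0.3 ppm and 362 ± 110.3 at 0.03 ppm. Antioxidant genes controlled by Nrf2 had 12 of 28 above 0 (median -0.03). nqo1, a quinone reductase, averaged 3069 ± 388 at 0.3 ppm and 3269 ± 772 at 0.03 ppm, and hmox1a, heme oxygenase, 279 ± 81.5 at 0.3 ppm and 299.7 ± 109 at 0.03 ppm. All 3 genes overlapped between the doses. gpx4a, which reduces lipid peroxides, had 28325, 30404 and 19577 at 0.3 ppm, against 16157, 20107 and 15046 at 0.03 ppm, so it was higher in each replicate number although the doses overlapped.

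In the interferon list 10 of 26 genes were above 0 (median -0.05), and in the neutrophil and macrophage list 22 of 36 (median 0.03, or -0.05 with equal totals). ifit14, an interferon-induced gene, had 18, 16 and 58 at 0.3 ppm, against 5, 15 and 10 at 0.03 ppm. lyz, the lysozyme gene of myeloid cells, had 1012, 758 and 1128 at 0.3 ppm, against 764, 366 and 847 at 0.03 ppm, and mpx, neutrophil myeloperoxidase, averaged 226 ± 26.9 at 0.3 ppm and 231 ± 32.0 at 0.03 ppm. irg1l, which makes itaconate in macrophages and, in zebrafish, in infected epidermis, had 119, 154 and 225 at 0.3 ppm, against 212, 243 and 254 at 0.03 ppm. The acute phase gene saa was high in 1 library of the 6, with 11, 8 and 116 at 0.3 ppm, against 4, 10 and 3 at 0.03 ppm, and it was also high in replicate 3 of the control (71) and of 1 ppm (95).

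The inducible heat shock gene hsp70.1 had 23, 2521 and 65 at 0.3 ppm, against 27, 20 and 42 at 0.03 ppm, and hsp90aa1.2 had 685, 4609 and 1005 at 0.3 ppm, against 757, 681 and 801 at 0.03 ppm. hsp70l, chosen after its values were seen, had 46, 6069 and 131 at 0.3 ppm, against 69, 40 and 116 at 0.03 ppm. Replicate 2 at 0.3 ppm alone carried these high values, and the hsp70 genes are near-identical copies whose reads can be shared. The heat shock list, with 26 of 34 genes above 0, had a median of 0.17, and 0.09 without that library.

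Immediate early genes, which are switched on within minutes of stimulation, set 0.03 ppm replicate 2 apart: 32 of the 43 tested were lowest there. fosab, chosen after its values were seen like junba and ch25h, had 2617, 2800 and 2612 at 0.3 ppm, against 7561, 225 and 7594 at 0.03 ppm. junba, its partner in the AP-1 factor, had 598, 451 and 512 at 0.3 ppm, against 1906, 187 and 1622 at 0.03 ppm, and ch25h, cholesterol 25-hydroxylase, 63, 54 and 44 at 0.3 ppm, against 271, 23 and 242 at 0.03 ppm. The libraries at 0.3 ppm were close to each other and lay between the extremes at 0.03 ppm. The control libraries also ranged widely, with 488, 2734 and 930 for junba and 20, 256 and 75 for ch25h. With all 6 libraries the log2 difference was -0.69 for junba and -1.11 for ch25h, but positive for fosab. Without 0.03 ppm replicate 2 all 3 genes were called lower and F7 was called higher at 0.3 ppm (smallest limma adjusted p = 0.00766), so fosab changed sign. These genes were chosen after their values were seen, so the calls without that library are description only. The median of the immediate early list was -0.10 with all 6 libraries. It was -0.52 without 0.03 ppm replicate 2, but 0.26 without 0.03 ppm replicate 1. Of the 43 genes, 22 were highest in 0.03 ppm replicate 1 and 14 in 0.03 ppm replicate 3.

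Glucocorticoid and stress axis genes had 12 of 18 above 0 (median 0.17, or 0.09 with equal totals and 0.08 without 0.03 ppm replicate 3). tsc22d3, a glucocorticoid-induced regulator, had 2463, 3357 and 2984 at 0.3 ppm, against 2272, 2342 and 2237 at 0.03 ppm, and crhb, the corticotropin-releasing hormone gene, 89, 85 and 104 at 0.3 ppm, against 71, 59 and 75 at 0.03 ppm. Neither gene overlapped between the doses in the unscaled values, but both overlapped with the libraries rescaled to equal totals. In the unscaled values 2 of the 18 genes lay above without overlap, beside 2.69% of all genes, and 0 below, beside 2.17%. fkbp5, another glucocorticoid target, averaged 3706 ± 1521 at 0.3 ppm and 2767 ± 941 at 0.03 ppm, with overlap. Thyroid axis genes had 10 of 16 above 0 (median 0.10, or 0.02 with equal totals), and genes of insulin-like growth factor signalling 8 of 22 (median -0.07), among them igfbp2b, a binding protein, at 75, 89 and 123 at 0.3 ppm, against 115, 168 and 180 at 0.03 ppm.

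Cell cycle genes had 30 of 69 above 0 and a median of -0.07. mki67, a marker of dividing cells, had 1596, 1300 and 1498 at 0.3 ppm, against 1867, 1798 and 1702 at 0.03 ppm, whereas mad2l1, of the spindle checkpoint, had 628, 683 and 624 at 0.3 ppm, against 578, 415 and 445 at 0.03 ppm. These members lay apart in opposite directions. Of the 69, 3 lay below without overlap, beside 2.17% of all genes, and 1 above, beside 2.69%.

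Cytosolic ribosomal protein genes formed the most uniform list, with all 80 tested above 0 at a median log2 difference of 0.22, or 0.14 with equal totals. In 16 of the 80 the 3 libraries at 0.3 ppm lay above the 3 at 0.03 ppm, beside 2.69% of all genes. rplp0 had 199680, 204878 and 179509 at 0.3 ppm, against 172500, 150802 and 106602 at 0.03 ppm. The difference was not the same in each replicate number: the median was -0.01 in replicate 1, 0.12 in replicate 2 and 0.51 in replicate 3. In 73 of the 80 genes the lowest library was 0.03 ppm replicate 3, which also had the lowest total, and without it the median was 0.09.

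Nuclear genes of the respiratory chain had 72 of 77 above 0 (median 0.17, or 0.09 with equal totals), with medians of -0.08, 0.10 and 0.50 in replicates 1, 2 and 3. Their lowest library was 0.03 ppm replicate 3 in 50 genes and their highest 0.3 ppm replicate 3 in 52, and without 0.3 ppm replicate 3 the median was 0.08. The 13 genes of the mitochondrial genome had a median of 0.17, but 12 were lowest in 0.03 ppm replicate 2 and 10 highest in 0.03 ppm replicate 3, and without replicate 2 at that dose the median was -0.03.

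**Figure D4:**
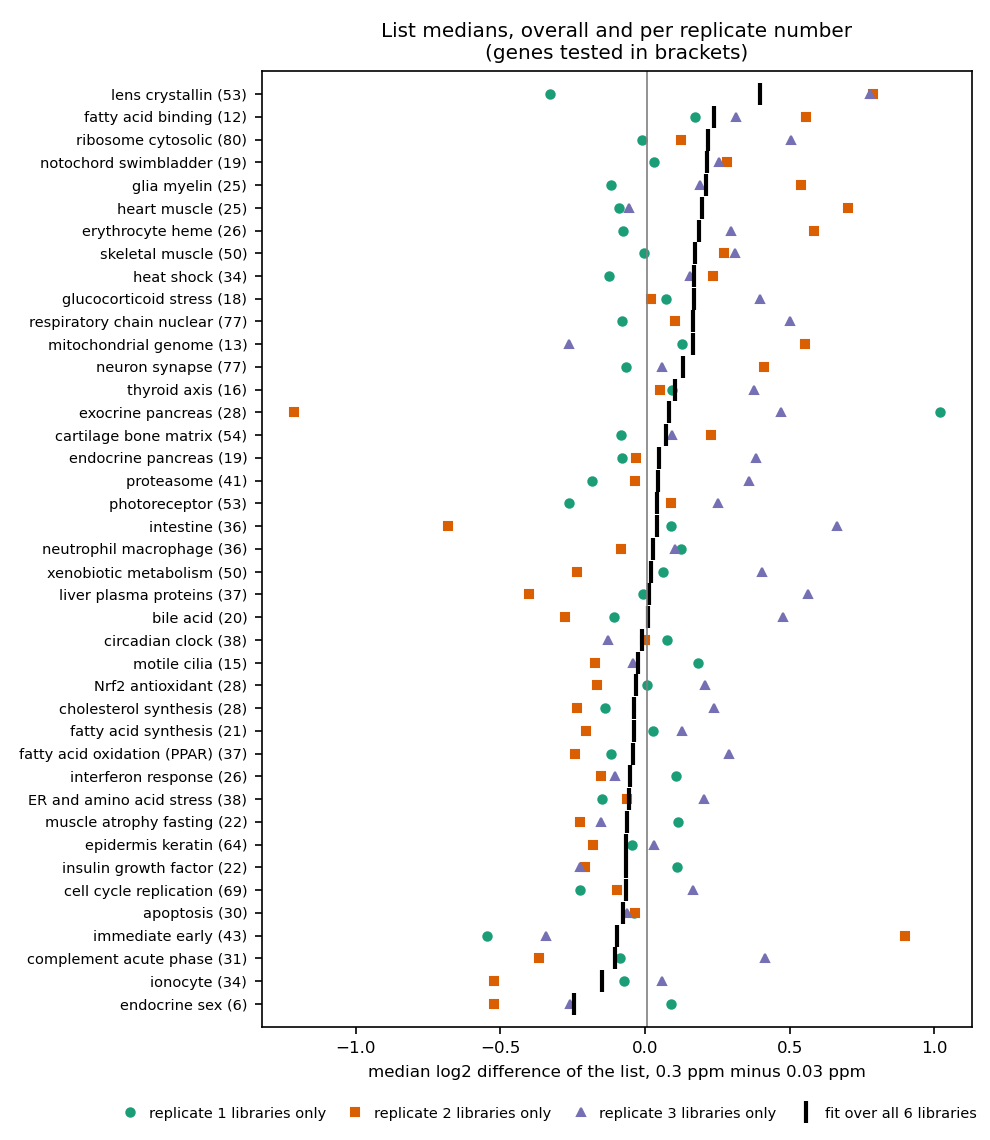
Median log2 difference of 0.3 ppm minus 0.03 ppm (horizontal axis) for 41 gene lists, with the number of genes tested in brackets. Black bars are the fit over all 6 libraries and coloured points the same difference between libraries of 1 replicate number; the points of a list often fall on both sides of the line that marks the median of all genes.

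Tissue lists differed widely between replicates. Lens crystallin genes had 51 of 53 above 0 and a median of 0.40, the highest of the 41 lists. Their medians were -0.33, 0.79 and 0.78 in replicates 1, 2 and 3, and 48 of the 53 were lowest in 0.03 ppm replicate 3, without which the median was -0.07. The list took 0.889%, 0.997% and 0.522% of all counts at 0.3 ppm, against 1.09%, 0.581% and 0.360% at 0.03 ppm, so the doses overlapped.

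Neuron and synapse genes had 65 of 77 above 0 (median 0.13), and 66 of the 77 were lowest in 0.03 ppm replicate 2, without which the median was -0.14. Glia and myelin genes had 21 of 25 above 0 (median 0.21, and -0.10 without the same library). mbpa, a myelin protein gene, had 3966, 2876 and 3622 at 0.3 ppm, against 3285, 1465 and 2942 at 0.03 ppm. Heart muscle genes followed with 17 of 25 above 0 (median 0.20, and -0.17 without that library) and skeletal muscle genes with 38 of 50 (median 0.17, and 0.04 without it). Red blood cell and heme genes had 22 of 26 above 0 (median 0.19, and 0.03 without that library), among them the globin gene hbz, at 157, 302 and 153 at 0.3 ppm, against 149, 57 and 123 at 0.03 ppm. Skeletal muscle took between 10.8% and 14.1% of all counts at 0.3 ppm, against between 9.42% and 12.7% at 0.03 ppm.

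Of 19 notochord and swim bladder genes 16 were above 0 (median 0.21, but 0.07 without 0.03 ppm replicate 2 and 0.41 without 0.3 ppm replicate 2), and of 54 cartilage and bone matrix genes 33 (median 0.07, and just below 0 with equal totals). bgna, the proteoglycan biglycan, had 70, 64 and 114 at 0.3 ppm, against 50, 26 and 63 at 0.03 ppm. Photoreceptor genes had 28 of 53 above 0 (median 0.04, or -0.03 with equal totals), and opn1lw1, a red cone opsin gene, had 50, 23 and 57 at 0.3 ppm, against 94, 52 and 88 at 0.03 ppm. Proteasome genes had 28 of 41 above 0 (median 0.05, or -0.03 with equal totals), with 33 highest in 0.3 ppm replicate 3. Circadian clock genes had 18 of 38 above 0 (median -0.01), and clocka, a core activator of the clock, had 145, 167 and 140 at 0.3 ppm, against 173, 217 and 253 at 0.03 ppm.

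Of 64 epidermis and keratin genes 20 were above 0 (median -0.07), and of 34 genes of ionocytes, the ion-pumping cells of the skin, 11 (median -0.15). In these lists 42 and 26 genes were highest in 0.03 ppm replicate 2, and without it the medians were 0.10 and 0.12. trpv6, the calcium channel of ionocytes, had 2179, 2032 and 2687 at 0.3 ppm, against 2075, 5457 and 2711 at 0.03 ppm. Epidermis genes took 7.94%, 11.2% and 7.46% of all counts at 0.3 ppm, against 8.45%, 12.2% and 7.72% at 0.03 ppm, with the highest share in replicate 2 at either dose.

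Exocrine pancreas genes had the widest range over libraries of the 41 lists, with medians of 1.02, -1.21 and 0.47 in replicates 1, 2 and 3. Of the 28 tested, 25 were lowest in 0.03 ppm replicate 1 and 23 were highest in 0.03 ppm replicate 2. prss59.2, a trypsin-family protease gene, had 22174, 29523 and 16587 at 0.3 ppm, against 6882, 28050 and 15051 at 0.03 ppm. Intestinal genes had 22 of 36 above 0 (median 0.04, or -0.04 with equal totals), with 21 highest in 0.3 ppm replicate 3. vil1, the brush border gene villin, had 1668, 1243 and 3153 at 0.3 ppm, against 3401, 4507 and 2164 at 0.03 ppm, and cdx1b, a gut transcription factor, 55, 58 and 93 at 0.3 ppm, against 94, 177 and 90 at 0.03 ppm. In vil1 replicate 3 ran against the other 2, while in cdx1b the replicate 3 values, 93 and 90, were nearly equal. The part of these library differences in the values of single genes was not tested.

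**Figure D5:**
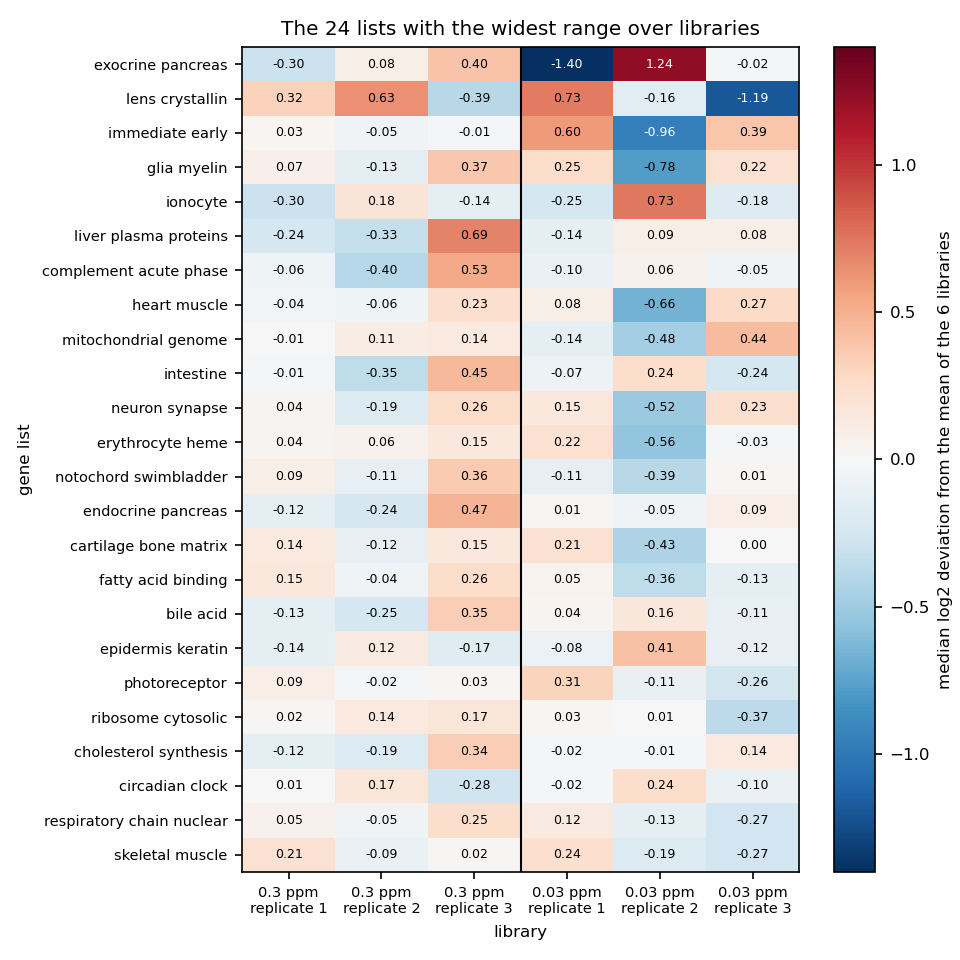
Median log2 deviation of each of 24 gene lists (rows) from the mean of the 6 libraries, by library (columns, 0.3 ppm left and 0.03 ppm right of the line; red higher, blue lower). The strongest cells are single libraries, such as exocrine pancreas at -1.40 and 1.24 in 0.03 ppm replicates 1 and 2 and lens crystallins at -1.19 in 0.03 ppm replicate 3.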

How the data were processed

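Whole-larva poly-A RNA was sequenced from stranded libraries. Per the submitters' processing notes the tools were CASAVA, STAR 2.5.1b, RSEM 1.2.28 and DESeq2 1.10.1 with genome build GRCz10, and their settings are not given in the sources used here. Each deposited value is, per the file headers, a normalised count, rounded to whole numbers by the authors. It is neither a raw count nor scaled to a fixed total, so these deposited values are treated as a score and no count test was run. A table of the whole series was not used.

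With limma 3.58.1 in R 4.3.3, a model of dose was fitted on the 6 libraries to log2(value + 1), unscaled, with a mean-variance trend, two-sided tests and Benjamini-Hochberg adjustment over 21816 genes, and genes were called at an adjusted p under 0.05. Differences are on this log2 scale, which understates changes of low genes. An exact permutation test of 3 against 3 libraries cannot go below p = 0.1, so none was used. No pair of the 12 libraries held identical values.

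The labels number replicates 1 to 3 without saying what a number marks. Deviations from the dose means correlated across genes at 0.135, 0.365 and 0.172 in same-number pairs and between -0.234 and 0.0902 in other pairs, so a fit with the replicate number as a block was added. The deviations of a gene sum to 0 within a dose, so these correlations are not independent of each other.

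The text names called genes; the 12 higher and 12 lower genes of smallest unadjusted p, and the 5 of largest change in each direction, with a mean of at least 50, a proper symbol and no overlap; up to 4 members per list of smallest p; and genes called earlier against the control. Further list members are named for their known role and were chosen after their values were seen. Comparison, genes and lists were chosen with earlier results of these data known. Of 1591 symbols in the 41 lists, 1441 were found by the names in the files and 42 through the gene name table, and 1417 genes were tested. Alternatives covered scaling, filter, pseudocount, libraries fitted, empirical Bayes, library weights and omitted libraries. Intervals that need raw counts are not given. Python 3.11.15 and matplotlib 3.10.9 drew the figures. A gene of the lists is not reported here.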

Additional observations from a re-analysis of the deposited data

Results flagged for a closer look

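FO904928.1 averaged 47 normalised counts in the 3 libraries at 1 ppm, which the comparison of 0.3 with 0.03 ppm did not use, while it was listed at 0 in all 3 control libraries. It was picked out because it is a signal in libraries outside the comparison. Its values at 1 ppm, 47, 45 and 49, lay within the range of those at 0.3 ppm, and whether reads of sh3bp5a are divided between the 2 IDs was not tested.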

How the results depend on the processing

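The count of called genes stayed 0 in 10 of the 12 settings that kept all 6 libraries, and leaving out 1 library or 1 replicate number gave 0 to 4. It was 1 with all 12 libraries in the fit and 1 with the 9 PFOS libraries, FO904928.1 each time. Those calls are description only, since the gene had no spread in the libraries listed at 0. Leaving out 0.3 ppm replicate 2 called 1 gene, adob (limma adjusted p = 0.0037), and leaving out 0.03 ppm replicate 2 called 4, F7, junba, fosab and ch25h. The calls made with a library left out are description only too. Without 0.3 ppm replicate 2, adob was listed at 0 in every library left at that dose, so it had no spread there. The sum of its 2 IDs over all 6 libraries had a log2 difference of -0.0010. Deviations of same-number libraries of the 2 doses correlated only weakly, at 0.135 to 0.365. With the replicate block 0 genes were called, 703 had an unadjusted p under 0.05, and no call changed. Of the 41 list medians 24 were above 0, 15 with equal totals, and 18 to 29 without 1 library or replicate number. Without overlap, 281 genes were higher and 957 lower with equal totals, which moved the median of all genes by -0.08 and so turned small differences. The cause of the other changes was not tested.

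Of 81 genes followed through 21 settings, 70 kept their sign. mkrn1 turned to -0.040 with equal totals. With a weight for each library, DUSP27 was 0.025, stat1b 0.068, mkrn1 -0.0097, calcoco1b 0.046 and fosab -0.65. The sum of FO904928.1 and sh3bp5a, chosen after seeing the data, gave -0.071. Without 1 library or replicate number the log2 differences ran from -0.20 to 0.014 for DUSP27, -0.69 to 0.21 for stat1b, -0.037 to 0.11 for mkrn1, -0.34 to 0.34 for calcoco1b, -0.65 to 0.16 for fbxo32, -1.53 to 1.05 for fosab, -0.018 to 2.94 for hsp70.2, -0.20 to 3.69 for hsp70l, -0.75 to 0.029 for trpv6, -0.0091 to 0.51 for lygl1 and -0.14 to 0.027 for si:dkey-239b22.1. With 3 libraries a dose, intervals of genes below 100 normalised counts often reached beyond a 2-fold difference. Larger differences in higher genes were not called either. The means of ddit4 and noxo1a differed 2.07-fold and 2.17-fold without overlap, and neither was called with all 6 libraries.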
